A study of Mus musculus with 3 samples.

Results

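The 10 genes followed here, Pou5f1, Nanog, Otx2, Utf1, Dnmt3b, Fgf5, Tdgf1, T, Mixl1 and Mesp1, mark the epiblast and the first mesoderm of the mouse embryo. They were chosen by symbol, each matched 1 row of the 32285 genes counted, and they were read in every spot with at least 1000 UMIs (unique molecular identifiers, each standing for 1 captured RNA molecule). The material was frozen sections of mouse uterus taken on day 7.5 of pregnancy and measured by Visium, in which a slide carries a grid of barcoded spots and a spot collects RNA from a patch of tissue that can include several cells. There was 1 group and no treatment: 3 libraries of females that had normal chow, lived with female littermates until 8 weeks of age and were mated with stud males, with no strain or genotype given in the labels. One library holds sections of replicates 1 and 2 together and counts as 1 sample; the others hold replicate 3 and replicate 4. After the UMI minimum they had 1773, 1080 and 1086 spots, with 16894459, 27278983 and 29953072 UMIs and medians of 8216, 26547 and 28286 UMIs per spot. The 39 spots below the minimum held 0 UMIs of the 10 genes. Libraries shared 676 to 825 spot barcodes, which on such slides name positions and not cells. At least 1 of the 10 genes was found in 552 of 3939 spots, with 1572 UMIs in all.

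The epiblast is the tissue from which the whole embryo proper forms. It carries the pluripotency factors until gastrulation, when cells at its posterior side pass through the primitive streak, switch on T-box and Mix-type factors and leave as mesoderm. In the uterus at this stage it is a small cup inside the implantation site, wrapped by visceral endoderm, capped by extraembryonic ectoderm and surrounded by trophoblast and decidua, the transformed stroma of the mother.

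By role, Pou5f1 (OCT4) and Nanog are core pluripotency transcription factors, and Otx2 is a homeodomain factor of the epiblast that is later needed for the head. Utf1 is a chromatin-associated protein of pluripotent cells that is also known from extraembryonic ectoderm. Dnmt3b is a de novo DNA methyltransferase. Fgf5 is a secreted fibroblast growth factor of the post-implantation epiblast, and Tdgf1 (Cripto) is a membrane-anchored co-receptor for Nodal. T (brachyury) and Mixl1 are transcription factors of the primitive streak, and Mesp1 is a basic helix-loop-helix factor of the earliest mesoderm.

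All 10 are protein coding in GENCODE release 21 (GRCm38). Pou5f1 (ENSMUSG00000024406) lies at chr17:35506018-35510772 and T (ENSMUSG00000062327) at chr17:8434423-8442496, both on the plus strand. Dnmt3b (ENSMUSG00000027478) lies at chr2:153649450-153687730, Utf1 (ENSMUSG00000047751) at chr7:139943789-139945112, Nanog (ENSMUSG00000012396) at chr6:122707489-122714633 and Fgf5 (ENSMUSG00000029337) at chr5:98254184-98277030, also on the plus strand. On the minus strand, Mesp1 (ENSMUSG00000030544) lies at chr7:79792241-79793788, Otx2 (ENSMUSG00000021848) at chr14:48657677-48673819, Tdgf1 (ENSMUSG00000032494) at chr9:110939603-110946158 and Mixl1 (ENSMUSG00000026497) at chr1:180693043-180697034. Opposite-strand genes overlap 3 of them: Gm19553 overlaps Pou5f1, Dnmt3bos overlaps Dnmt3b and Otx2os1 overlaps Otx2. How strand was used in counting is not given in the sources used here, so UMIs of those 3 genes could include antisense reads.

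Promoter sequence is shown for Pou5f1, Dnmt3b, Utf1 and T, whose levels are compared most closely, and for Nanog, a pluripotency gene counted in only a few spots. RefSeq promoter entries (GRCm38.p6) matched 9 of the 10 genes, all but Mixl1. Each line gives 150 bases upstream of the annotated gene, 5′ to 3′ on the plus strand, with motif matches in capitals.
Pou5f1: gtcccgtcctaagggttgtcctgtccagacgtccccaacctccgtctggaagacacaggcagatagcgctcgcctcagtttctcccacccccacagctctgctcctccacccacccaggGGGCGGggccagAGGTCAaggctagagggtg
Dnmt3b: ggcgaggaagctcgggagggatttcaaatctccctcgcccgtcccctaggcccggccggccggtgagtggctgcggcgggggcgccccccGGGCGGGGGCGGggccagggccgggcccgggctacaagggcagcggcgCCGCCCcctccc
Utf1: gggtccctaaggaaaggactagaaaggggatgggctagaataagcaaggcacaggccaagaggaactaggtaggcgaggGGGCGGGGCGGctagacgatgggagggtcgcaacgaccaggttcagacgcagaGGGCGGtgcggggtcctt
T: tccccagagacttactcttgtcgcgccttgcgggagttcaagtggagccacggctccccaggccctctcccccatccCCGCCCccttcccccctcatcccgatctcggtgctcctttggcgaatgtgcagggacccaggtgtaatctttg
Nanog: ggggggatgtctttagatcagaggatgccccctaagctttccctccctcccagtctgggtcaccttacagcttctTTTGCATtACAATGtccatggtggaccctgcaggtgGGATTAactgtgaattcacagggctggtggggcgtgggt
They lie at chr17:35505868-35506017 (Pou5f1), chr2:153649299-153649448 (Dnmt3b), chr7:139943639-139943788 (Utf1), chr17:8434273-8434422 (T) and chr6:122707339-122707488 (Nanog). On both strands, 7 motifs were searched in the 250 bases upstream of the RefSeq start of 32851 promoters, and matches of different motifs may overlap. The GC box GGGCGG, the site of SP-type factors, matched 6 of the 9 genes (Pou5f1, Dnmt3b, T, Utf1, Fgf5 and Tdgf1) and 32.7% of all promoters. The POU octamer core ATGCAAA (4.13% of all promoters), the SOX motif CATTGT (10.7%) and the OTX-type motif GGATTA (6.25%) matched Nanog alone among the 9. The nuclear receptor half-site AGGTCA (14.0%) matched Pou5f1 and Nanog, the T-box half-site TCACACC (3.33%) Fgf5, and the TCF/LEF motif CTTTGAT (3.21%) Mesp1, there inside the GENCODE gene model. A match describes these letters and no more.

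The libraries differed widely in these genes. Pou5f1 had 39 UMIs in 22 spots of the library of replicates 1 and 2, 1 UMI in 1 spot of replicate 3 and 330 UMIs in 77 spots of replicate 4. As shares of spots these are 1.24% (exact Clopper-Pearson 95% interval 0.779 to 1.87), 0.093% (0.002 to 0.515) and 7.09% (5.64 to 8.78). These 3 intervals do not overlap, but spots of the first library were shallower, and values at equal depth follow below. Intervals and limits cover counting error only, and in a spot, fewer cells of a type and less RNA per cell cannot be told apart.

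Nanog was at the edge of detection, with 2 UMIs in 1 spot, 0 UMIs and 3 UMIs in 3 spots in the same order of libraries. A count of 0 of 1080 spots allows a share of up to 0.278%, so its absence from replicate 3 could not be told from the level in replicate 4 (0.276%). Otx2 had 8 UMIs in 6 spots, 0 UMIs and 32 UMIs in 20 spots, and its share of 1.84% in replicate 4 (1.13 to 2.83) lies above what the count of 0 in replicate 3 allows. Among the signalling genes, Fgf5 had 1, 0 and 9 UMIs in 1, 0 and 7 spots. Tdgf1 had 10, 0 and 44 UMIs in 8, 0 and 23 spots. Both were thus counted mainly in replicate 4.

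Replicate 4 also had the most UMIs of each streak and mesoderm gene. Mesp1 had 33 UMIs in 23 spots, 2 UMIs in 2 spots and 81 UMIs in 33 spots, or 1.30% (0.824 to 1.94), 0.185% (0.022 to 0.667) and 3.04% (2.10 to 4.24) of spots. Mixl1 had 1, 0 and 5 UMIs in 1, 0 and 4 spots. T had 18 UMIs in 14 spots, 12 UMIs in 11 spots and 56 UMIs in 23 spots, or 0.79% (0.432 to 1.32), 1.02% (0.51 to 1.82) and 2.12% (1.35 to 3.16). The T intervals of the first 2 libraries overlap. Per total UMIs of the library (CPM), T was at 1.07, 0.44 and 1.87 and Mesp1 at 1.95, 0.0733 and 2.70, so replicate 3 was lowest in both.

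Both chromatin genes were found in every library. Dnmt3b had 116 UMIs in 88 spots, 132 UMIs in 118 spots and 384 UMIs in 174 spots, which is 4.96% (4.00 to 6.08), 10.9% (9.13 to 12.9) and 16.02% (13.9 to 18.3) of spots. Utf1 had 27 UMIs in 21 spots, 86 UMIs in 46 spots and 140 UMIs in 73 spots, or 1.18% (0.735 to 1.81), 4.26% (3.13 to 5.64) and 6.72% (5.31 to 8.38). In replicate 3 these 2 genes and T gave all but 3 of the 233 UMIs of the 10 genes. The plot of shares by library shows that separation.

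**Figure D1:**
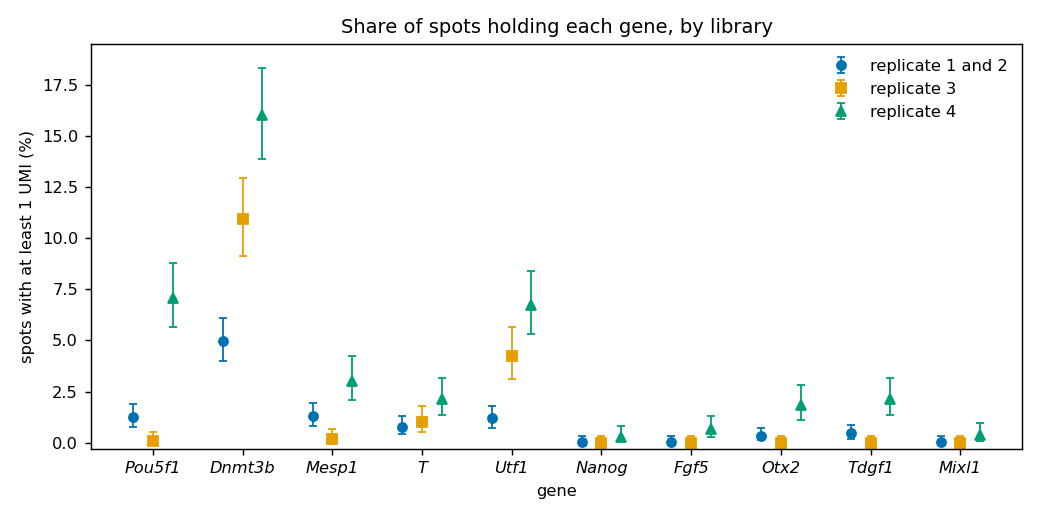
Share of spots with at least 1 UMI of each gene (vertical axis, percent) in the 3 libraries; points are shares and bars are exact 95% binomial intervals. Pou5f1 reaches 7.09% in replicate 4 and 0.093% in replicate 3, while Dnmt3b is at 16.02% and 10.9% there.

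The shares moved with depth. With each spot thinned to 3000 UMIs, which left 1605, 1078 and 1083 spots, Pou5f1 remained in 0.312%, 0% and 2.31% of spots, and the intervals of the first library (0.101 to 0.725) and replicate 3 (0 to 0.342) then overlap. T remained in 0.249%, 0.186% and 0.462% of spots, with intervals that overlap in all 3 libraries. Dnmt3b remained in 1.68%, 0.928% and 2.95%, so replicate 3 no longer stood above the library of replicates 1 and 2, whose intervals (0.446 to 1.70 and 1.11 to 2.44) overlap. Utf1 remained in 0.623%, 1.21% and 0.462%, where the intervals of the 3 libraries overlap.

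UMIs of the genes were concentrated in few spots in a way that differed between genes. The 10 richest spots held 59.4% of the Pou5f1 UMIs of replicate 4, 69.1% of its Mesp1 UMIs, 76.8% of its T UMIs and 70.5% of its Tdgf1 UMIs. For Dnmt3b that share was 36.7% and for Utf1 29.3%. The highest count in 1 spot of replicate 4 was 33 UMIs for Pou5f1, 21 for Dnmt3b, 16 for Mesp1, 11 for T, 7 for Tdgf1, 6 for Utf1 and 4 for Otx2. In replicate 3 no spot had more than 5 UMIs of any of the genes.

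RNA that diffuses over the slide can place UMIs in spots without the cells that made them, so smooth muscle spots, where these genes are not known to be active, serve as a reference. They were the spots highest in a smooth muscle list, 84 in replicate 4 with a median of 17553 UMIs. Pou5f1 was found in 3.57% of them and Dnmt3b in 4.76%, against 7.09% and 16.02% of all spots at a median of 28286 UMIs. The 3 Pou5f1 spots among them had 3 UMIs in all. Utf1, Otx2, Tdgf1, Nanog, Fgf5 and Mixl1 had 0 UMIs in the smooth muscle spots of all 3 libraries. In the library of replicates 1 and 2, Dnmt3b was in 1.72% of smooth muscle spots, against 4.96% of all spots. In replicate 3 it was in 3.17%, against 10.9%. Its share of spots was thus above this reference in each library, but smooth muscle spots were also shallower. Per total UMIs, exact Poisson intervals for smooth muscle spots and the whole library separate only in replicate 4 (1.16 to 8.32 against 11.6 to 14.2 CPM). They overlap in the library of replicates 1 and 2 (0.829 to 7.79 against 5.67 to 8.24) and in replicate 3 (0.254 to 7.58 against 4.05 to 5.74). Outside replicate 4, Dnmt3b was therefore not separated from this reference per UMI.

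The genes were found in the same spots. The library of replicates 1 and 2 had 26 spots with at least 2 of the 10 genes and 12 with at least 3, up to 5 in 1 spot. Replicate 4 had 83 with at least 2 and 37 with at least 3, up to 8 in 1 spot. Replicate 3 had 22 spots with 2 genes and 0 with 3, which allows a share of up to 0.278%. Of the 45 possible pairs, 20, 3 and 40 were seen in at least 1 spot. In the library of replicates 1 and 2 the median depth of the 12 spots with 3 or more genes was 4024.5 UMIs, below the 8239 of the other spots. In replicate 4 it was 26981 against 28327, so spots with 3 or more genes were not the deeper ones. Spots with exactly 2 genes were deeper than spots with none in each library. Their medians were 12343, 30445 and 32638.5 UMIs against 8099, 25639 and 27245, so depth could add to pairs.

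**Figure D2:**
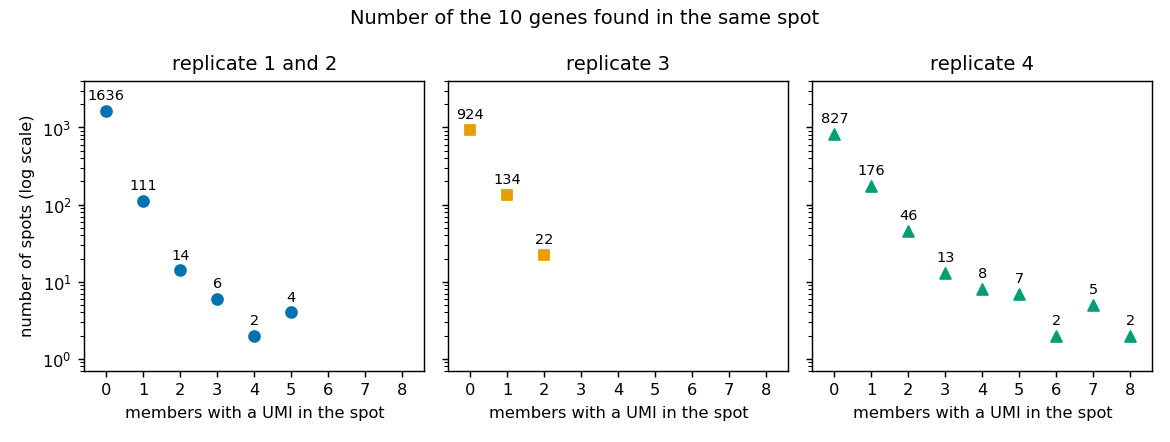
Number of spots (vertical axis, log scale) that hold 0 to 8 of the 10 genes (horizontal axis) in each library, with the count beside each point. Replicate 3 ends at 2 genes per spot, replicates 1 and 2 at 5 and replicate 4 at 8.

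Pou5f1 spots of replicate 4 most often also held Dnmt3b. Both were in 40 spots, 51.9% of the Pou5f1 spots and 23.0% of the Dnmt3b spots, while Dnmt3b was in 13.3% of the spots without Pou5f1. Utf1 was in 29.9% of the Pou5f1 spots and 4.96% of the others, Mesp1 in 27.3% and 1.19%, Tdgf1 in 20.8% and 0.69%, Otx2 in 18.2% and 0.59%, and T in 14.3% and 1.19%. Seen from the rarer genes, 14 of 20 Otx2 spots, 16 of 23 Tdgf1 spots, 21 of 33 Mesp1 spots, 11 of 23 T spots and 7 of 7 Fgf5 spots held Pou5f1. The 3 Nanog spots all held Dnmt3b, and 2 of them held Pou5f1.

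The library of replicates 1 and 2 showed the same pairs at lower counts. There 12 of 22 Pou5f1 spots (54.5%) held Dnmt3b, against 4.34% of spots without Pou5f1, and 9 (40.9%) held Mesp1, against 0.80%. Of its 8 Tdgf1 spots, 7 held Mesp1, 6 held Dnmt3b and 4 held Pou5f1. T was less often in company there: 3 of its 14 spots held Pou5f1 and 2 held Mesp1. In replicate 3 the pairs seen were Dnmt3b with Utf1 in 19 spots, Dnmt3b with T in 2 and Pou5f1 with Utf1 in 1.

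**Figure D3:**
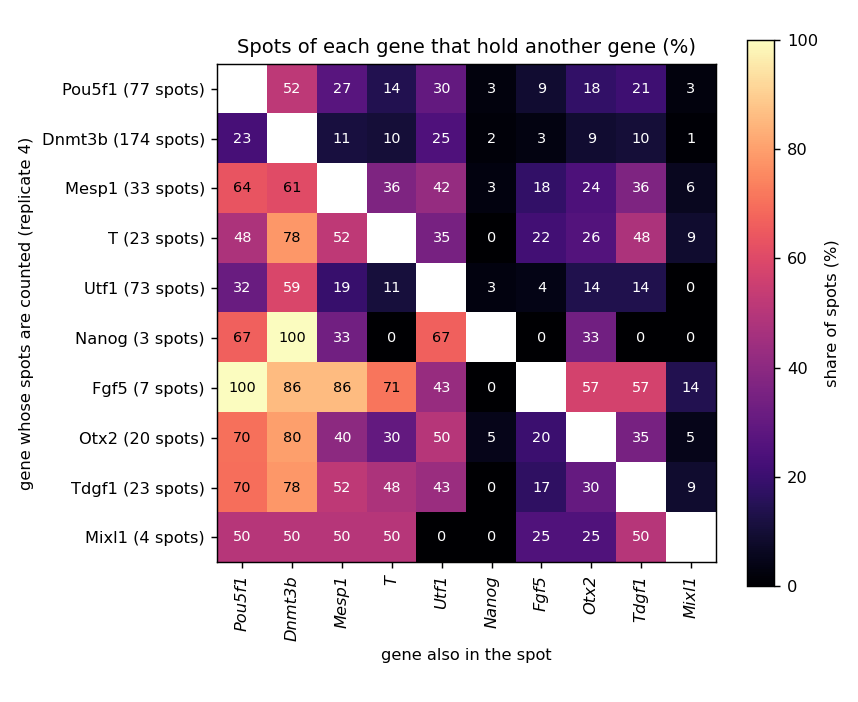
Share of the spots of each gene (row, with its number of spots in replicate 4) that also held another gene (column), in percent. Fgf5, Otx2 and Tdgf1 spots held Pou5f1 in 100%, 70% and 70% of cases, while 23% of Dnmt3b spots did.

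How often a gene stood alone separated the 10 genes as well. In replicate 4, 28 of 77 Pou5f1 spots held none of the other 9 genes, each with 1 UMI, and these spots carried 28 of its 330 UMIs. Otx2 was alone in 2 of 20 spots, Tdgf1 in 4 of 23, T in 5 of 23 and Mesp1 in 9 of 33. Dnmt3b was alone in 101 of 174 spots, which held 117 of its 384 UMIs, and Utf1 in 25 of 73. In replicate 3 Dnmt3b was alone in 97 of 118 spots and T in 9 of 11.

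The spots richest in Pou5f1 were divided by whether they held T or Mesp1. Replicate 4 had 17 spots with at least 5 Pou5f1 UMIs. Of these, 13 held T or Mesp1, with 40 T, 53 Mesp1, 118 Dnmt3b, 28 Tdgf1, 7 Fgf5, 14 Otx2, 14 Utf1, 3 Mixl1 and 1 Nanog UMIs for 170 Pou5f1 UMIs. The other 4 held 0 UMIs of T, Mesp1, Fgf5 and Mixl1, 1 each of Tdgf1 and Nanog, 48 of Dnmt3b, 10 of Otx2 and 6 of Utf1 for 81 Pou5f1 UMIs. Otx2 was in 8 of the 13 and in 4 of the 4. The clearest single spot of the second kind had 33 Pou5f1, 13 Dnmt3b and 2 Otx2 UMIs and none of the other 7 genes. A spot of the first kind had 14 Pou5f1, 14 Dnmt3b, 11 T, 7 Tdgf1, 4 Mesp1, 1 Otx2 and 1 Utf1 UMIs, and another had 17 Pou5f1, 16 Mesp1, 5 Tdgf1, 4 T, 2 Dnmt3b and 1 Mixl1. The T and Mesp1 values follow from the division, and with 4 spots on one side the others are given without a test.

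**Figure D4:**
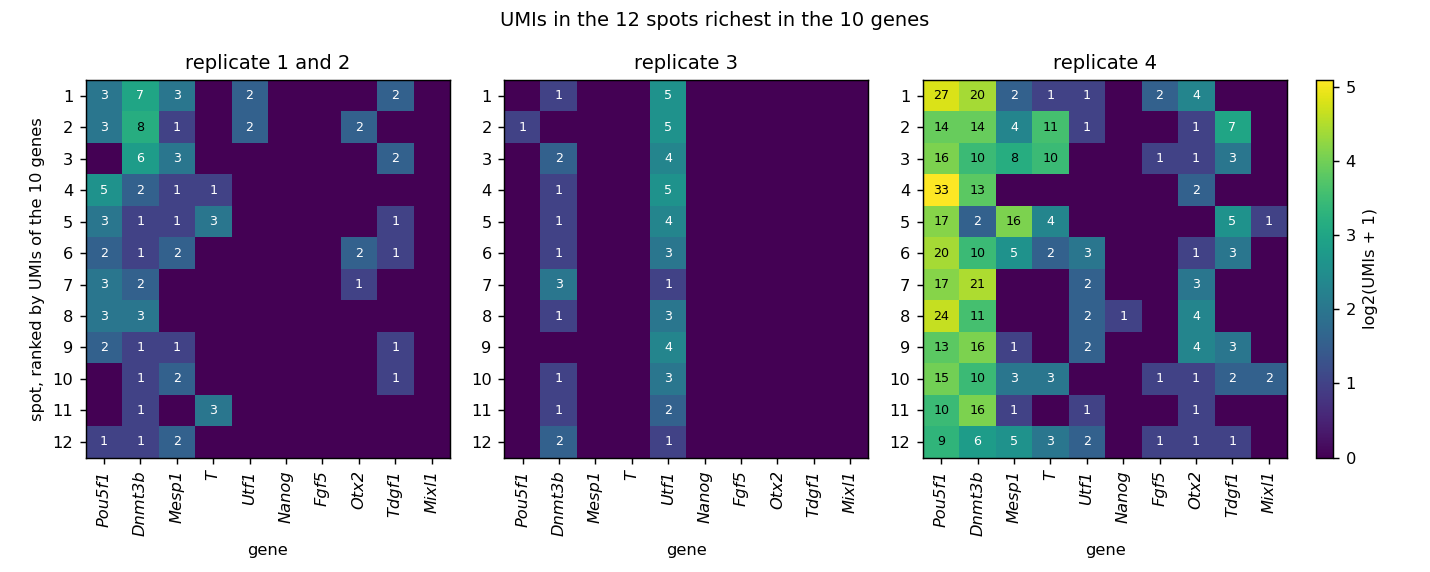
UMIs of each gene (columns) in the 12 spots with the most UMIs of the 10 genes (rows, ranked within each library); colour is log2(UMIs + 1) and the number is the UMI count. In replicate 4 the spots of rank 4, 7 and 8 hold 33, 17 and 24 Pou5f1 UMIs with no T or Mesp1, and in replicate 3 the spots hold Utf1 with few other UMIs.

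Correlations over the 1086 spots of replicate 4 (Pearson r of the log of counts per 10000 plus 1, for genes with at least 20 UMIs, given as a description since spots share a library and a sequencing depth) were 0.77 for Pou5f1 with Dnmt3b, 0.70 for Pou5f1 with Otx2 and 0.70 for Dnmt3b with Otx2. Mesp1 with T reached 0.75, Mesp1 with Tdgf1 0.70 and T with Tdgf1 0.69. Otx2 had 0.28 with Mesp1, 0.22 with T and 0.32 with Tdgf1. Pou5f1 had 0.62 with Mesp1, 0.58 with Tdgf1 and 0.50 with T, and Dnmt3b 0.53, 0.47 and 0.44 with Tdgf1, Mesp1 and T, so low values with the streak genes were those of Otx2 and Utf1. Utf1 had its highest value with Dnmt3b (0.49). In the library of replicates 1 and 2 the values over 1773 spots were 0.57 for Pou5f1 with Mesp1 and 0.53 for Pou5f1 with Dnmt3b, and no higher than 0.16 for Utf1.

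To place the genes in the tissue, spots were ranked by lists of marker genes that include none of the 10, and each spot was put in the first class it met. Classes were filled in order from the top 2% of all spots by the visceral endoderm, trophoblast and gland lists, the top 10% by the smooth muscle and natural killer lists and the top 20% by the decidua list. Spot positions were not used here. The trophoblast class held 22, 30 and 24 spots and was rich in Prl3d1, the giant cell hormone gene, with 783, 1955 and 1495 UMIs. Prl3d1 is on the list that ranked these spots, so its level there follows from their choice. The visceral endoderm class held 45, 5 and 29 spots, and its label was not borne out in replicate 3. Spink1, a secreted protease inhibitor gene, made 89.1%, 100% and 72.7% of its list UMIs, and in replicate 3 none of the apolipoprotein and other visceral endoderm genes was counted there. It is called the Spink1-led class here, and the 5 spots of replicate 3 were too few to be summed.

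Levels below are CPM, the UMIs of a gene scaled to a fixed total of UMIs of the class, in the order replicates 1 and 2, replicate 3 and replicate 4, and are not set side by side between genes. Pou5f1 had 7.86 and 55.2 CPM in the Spink1-led class (31.5 ± 33.5, SD, n = 2) and 4.80, 1.11 and 32.5 in trophoblast spots (12.8 ± 17.2, n = 3). It had 1.96, 0 and 11.5 CPM in decidua spots, 2.64, 0 and 11.02 in the remaining spots, and 0, 0 and 0.332 in natural killer spots. By CPM in replicate 4, the Spink1-led and trophoblast classes were above the decidua and remaining spots, with intervals that do not overlap. Those intervals treat UMIs as independent, and 1 spot held 17 of the 30 Spink1-led UMIs. By share of spots the order differed, with Pou5f1 in 13.8% of Spink1-led, 25.0% of trophoblast, 16.7% of decidua and 5.48% of remaining spots. Of the 330 Pou5f1 UMIs of replicate 4, 204 were in remaining and 63 in decidua spots. The other libraries had 1 or 2 Pou5f1 UMIs in the Spink1-led and trophoblast classes. The spread between libraries was as large as the level.

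Mesp1 had 15.7 and 40.5 CPM in the Spink1-led class (28.1 ± 17.5, n = 2), 4.80, 0 and 8.97 in trophoblast spots (4.59 ± 4.49, n = 3) and 3.26, 0 and 2.92 in decidua spots. It had 1.32, 0.139 and 1.84 CPM in the remaining spots and 0 UMIs in the natural killer spots of all 3 libraries. Dnmt3b had 31.5 and 93.8 CPM in the Spink1-led class (62.6 ± 44.1, n = 2) and 24.0, 21.05 and 29.2 in trophoblast spots (24.7 ± 4.11, n = 3). Its levels in natural killer spots were 6.48, 6.70 and 5.30 CPM (6.16 ± 0.75, n = 3), in decidua spots 6.96, 2.14 and 10.2, and in smooth muscle spots 3.04, 2.10 and 3.56. Within replicate 3, Dnmt3b was higher in natural killer spots (exact Poisson interval 4.94 to 8.88) than in decidua spots (0.924 to 4.22), and in replicate 4 the decidua level was the higher of the pair.

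Utf1 was ordered the other way. It had 62.4, 68.7 and 39.2 CPM in trophoblast spots (56.8 ± 15.5, n = 3), found in 11 of 22, 26 of 30 and 17 of 24 of them. The Spink1-led class had 0 and 20.2 CPM (10.1 ± 14.3, n = 2), and no other class exceeded 4.16 CPM in any library. Of the Utf1 UMIs in trophoblast spots, 12 of 13, 57 of 62 and 26 of 35 were in spots without Pou5f1, Mesp1, Tdgf1 or Otx2. Over all spots with Utf1, the median of the trophoblast list was 3510, 4164 and 1628 CPM, against 0 in spots without it in each library.

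T had 11.8 and 18.4 CPM in the Spink1-led class (15.1 ± 4.67, n = 2) and 4.80, 0 and 3.36 in trophoblast spots. In replicate 3, 11 of its 12 UMIs were in natural killer spots, in 10 of 224, and 1 UMI in the other 856 spots, which is 1.54 CPM against 0.0497. These are spots rich in granzymes, and the median of the natural killer list was 18488 CPM in the 11 spots with T and 973 in those without. Replicate 4 had 5 T UMIs in 5 of 131 natural killer spots (1.66 CPM, exact Poisson interval 0.538 to 3.87, against 1.89 in its other spots), none of them with Pou5f1, Mesp1, Tdgf1 or Otx2. The library of replicates 1 and 2 had 0 in 39 such spots, which by the limit of 3 counts allows up to 4.86 CPM. By CPM, T was thus higher in natural killer spots than elsewhere in replicate 3 and not in replicate 4. By spots, replicate 4 had T in 5 of 131 natural killer spots and in 18 of 955 others. In the remaining class of replicate 4, 29 of 31 T UMIs were in spots with Pou5f1, Mesp1, Tdgf1 or Otx2. The CPM elsewhere thus came largely from such spots. In spots of replicate 4 without these genes, T had 5 UMIs in natural killer spots, 2 in Spink1-led, 2 in remaining and 1 in decidua spots. It had 0 there in trophoblast, gland and smooth muscle spots. The difference outside such spots was not tested. Dnmt3b was also found in natural killer spots of replicate 3, in 43 of 224 (6.70 CPM, against 4.18 in the other spots), and the median of the natural killer list was 5597 CPM in its spots and 730 in those without. The other libraries did not show this. Replicate 4 had 5.30 CPM of Dnmt3b in natural killer spots against 13.7 in the others, with list medians of 57.5 and 114 CPM. Replicates 1 and 2 had 6.48 against 6.88 CPM, with list medians of 0 and 0. Over the natural killer spots of all 3 libraries Pou5f1 and Mixl1 had 1 UMI each and Mesp1, Tdgf1 and Otx2 had 0.

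**Figure D5:**
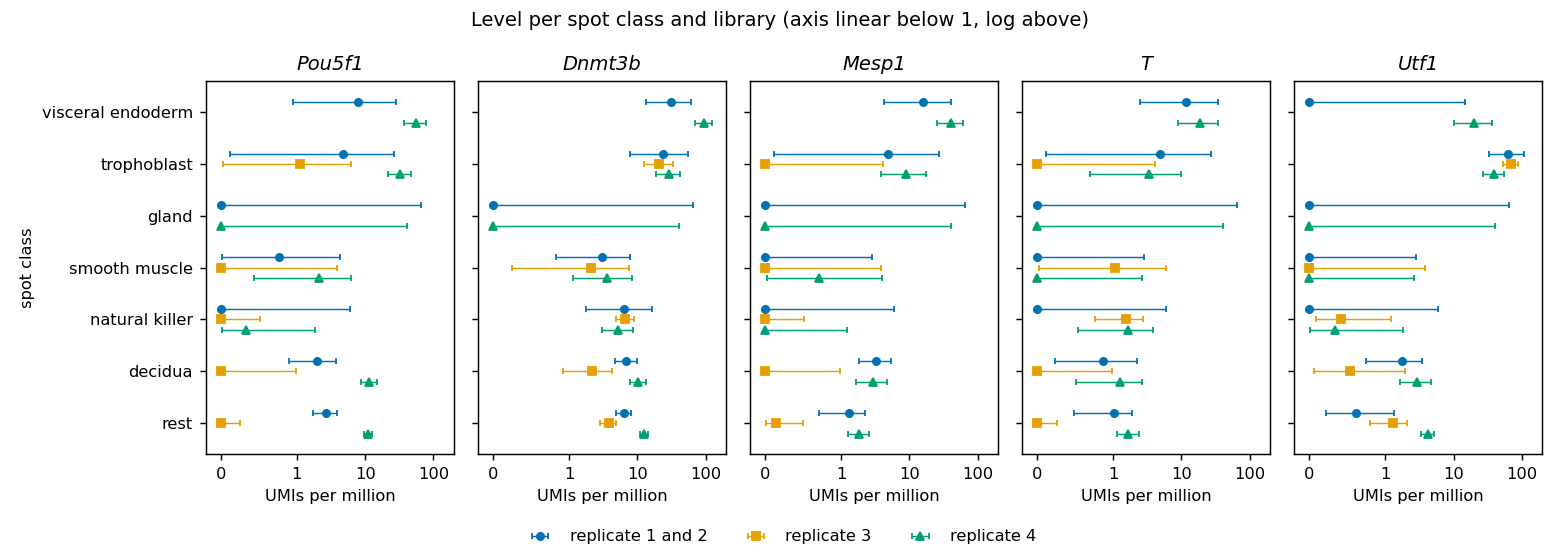
CPM (horizontal axis, linear below 1 and log above) of the 5 genes counted most, by spot class (vertical axis) and library; bars are exact 95% Poisson intervals, classes with fewer than 10 spots in a library are left out, and the visceral endoderm row is the Spink1-led class. Utf1 is highest in trophoblast spots of all 3 libraries, between 39.2 and 68.7.

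Counts were summed per library and class, and 19 sums of 56447 to 18519938 UMIs were fitted with edgeR's quasi-likelihood test over 11844 genes. Genes were called when the Benjamini-Hochberg adjusted p was below 0.05 and the log2 fold change was 1 or more in either direction. Filtering left 5 of the 10 genes in the fit, Pou5f1, Dnmt3b, Mesp1, T and Utf1, since Nanog, Fgf5, Otx2, Tdgf1 and Mixl1 had too few counts. A gene that passed through the classes where it is high was likely to differ, so the share of calls among the 5 is not read as support.

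Against the mean of the other classes, Mesp1, Pou5f1, Dnmt3b and T were higher in the Spink1-led class, 4 of the 5 tested, where 5.72% of all tested genes were called higher and 0.768% lower. Their log2 fold changes (± SE, edgeR adjusted p) were 5.60 ± 0.68 (1.18e-05) for Mesp1, 4.34 ± 0.55 (1.23e-05) for Pou5f1, 4.17 ± 0.57 (3.18e-05) for Dnmt3b and 4.41 ± 1.17 (0.0197) for T. Each SE was worked back as the size of the log2 fold change over the square root of edgeR's F statistic. It is approximate, most of all where sums held 0 UMIs of the gene. Utf1 had 4.04 ± 1.42 and was not called (0.0937). Few spots carried these sums. In the Spink1-led class of replicate 4, 1 spot held 17 of 30 Pou5f1 UMIs and 16 of 22 Mesp1 UMIs. Another spot held 10 of the Pou5f1 UMIs, so the values do not describe the class spot by spot. The gland sums held 0 UMIs of all 10 genes, so the mean of the classes depends on the prior count there. Against all other spots of the library pooled, the values were 3.90 for Mesp1, 2.24 for Pou5f1, 2.72 for Dnmt3b and 3.49 for T, all called (edgeR adjusted p 6.04e-10 to 0.00127).

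Replicate 4 decided these calls. Without it, 1 library with a summed Spink1-led class remained, assumed to vary like the other sums, and Mesp1 (5.13, edgeR adjusted p 0.202), Dnmt3b (3.23, 0.188) and T (4.03, 0.552) were no longer called and Pou5f1 was no longer tested. T was also lost without the library of replicates 1 and 2 (4.38, edgeR adjusted p 0.118). C1qa, C1qb and C1qc, complement genes of macrophages, were called higher in the same class (1.43, 1.54 and 1.21 for C1qa, C1qc and C1qb), while the macrophage list summed to 837 and 436 CPM there against 303 to 992 CPM in the other classes of the same libraries. Their part in the result was not tested.

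Ranking the spots without Spink1 and Rhox5, so that apolipoproteins, Ttr and Afp chose them, was added after the Spink1 levels were seen. It gave 36, 1 and 42 spots. The lowest of them had 319 CPM of the 11 genes left, against 5220 CPM of the full list in the Spink1-led class. Spots of replicates 1 and 2 had a median of 5688.5 UMIs here, so very few list UMIs could place a spot in this ranking. Pou5f1 then had 61.4 and 112 CPM in replicates 1 and 2 and in replicate 4, Dnmt3b 96.6 and 101, Mesp1 61.4 and 43.6, T 35.1 and 25.6, Utf1 30.7 and 40.1, Tdgf1 21.9 and 18.8 and Otx2 8.78 and 6.83. Tdgf1 passed the filter, and it, Pou5f1, Dnmt3b, Mesp1, T and Utf1 were all called, with log2 fold changes of 3.59 to 7.23 against the mean of the other classes (edgeR adjusted p 3.84e-10 to 5.48e-05). Pou5f1, Dnmt3b, Mesp1, T and Utf1 were each higher than in the Spink1-led class in both libraries. In replicate 4 the Pou5f1 intervals do not overlap (93.6 to 133 against 37.2 to 78.8 CPM), while those of the other 4 genes do, and the rankings can share spots.

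Compared directly with trophoblast spots, Mesp1 was higher and Utf1 lower in the Spink1-led class, 1 of 5 in each direction, where 11.3% of all tested genes were called higher and 6.95% lower. Mesp1 differed by 2.01 ± 0.64 (log2, edgeR adjusted p 0.0299) and Utf1 by -2.37 ± 0.76 (0.0322). In replicate 4, 16 of the 22 Mesp1 UMIs of the Spink1-led class were in 1 spot. T had 2.42 ± 1.16 (0.148), Dnmt3b 1.11 ± 0.45 (0.0817) and Pou5f1 0.56 ± 0.44 (0.40), none of them called. With Spink1 and Rhox5 left out of the ranking, Pou5f1 (2.21, edgeR adjusted p 0.00158), Dnmt3b (1.66, 0.0075) and T (4.09, 0.0243) were called higher than in trophoblast spots, as was Mesp1 (3.59, 0.0038), and Utf1 was no longer called lower (-0.71, 0.479). In the Spink1-led ranking each call was lost when a library was left out: Mesp1 without replicates 1 and 2 (0.0838) or replicate 4 (0.509), and Utf1 without replicates 1 and 2 (0.143) or replicate 3 (0.0886). Adult globin genes were lower in this comparison, 5 of 5, with 931 to 983 CPM in the Spink1-led class and 7571 to 9938 CPM in trophoblast spots, and their part in the Utf1 value was not tested.

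Other genes of the epiblast and pluripotency were in a list of 30 without the 10 genes, of which 12 were tested. Against the mean of the other classes 8 were higher and 0 lower, where 5.72% of all tested genes were higher. Rare genes of these lists mostly pass the filter through the class where they are high, so the counts and medians of the lists describe the tested genes and not the lists. The median log2 fold change of the 12 was 4.39. The smallest p values were those of Lin28a (5.95 ± 0.47), an RNA-binding protein that blocks let-7 maturation, Tdh (7.30 ± 0.63), a threonine dehydrogenase of pluripotent cells, L1td1 (4.09 ± 0.59), an RNA-binding protein of stem cells, and Sall4 (5.31 ± 0.79), a zinc finger partner of OCT4. Against trophoblast spots 5 of the 12 were higher and 1 lower, where 11.3% of all tested genes were higher and 6.95% lower. Among the higher ones were Tdh (5.88 ± 0.94), Lin28a (2.94 ± 0.52) and Fst (2.04 ± 0.28), a secreted activin antagonist that is also on the parietal endoderm list.

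In the list of primitive streak and nascent mesoderm genes, 6 of 11 tested (29 listed) were higher and 0 lower, with a median of 3.38. Of all tested genes, 5.72% were higher and 0.768% lower in this comparison with the mean of the other classes. Fgf3 (5.18 ± 0.86), Eomes (3.38 ± 0.69), a T-box factor of streak and trophoblast, Foxa2 (6.40 ± 1.25), a factor of endoderm and node, and Cyp26a1 (4.21 ± 0.91), which degrades retinoic acid, had the smallest p values. The extraembryonic and cardiac mesoderm list had 2 of 15 tested higher, Gata4 (6.03 ± 0.88) and Myl7 (3.70 ± 0.71), and 0 lower. Gata4 is also a factor of the visceral endoderm. Node and definitive endoderm genes had 2 of 5 higher, Cldn6 (7.16 ± 0.77) and Nog (3.87 ± 0.63).

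Lists of neighbouring tissues were counted in the same way, where 5.72% of all tested genes were higher and 0.768% lower. The primitive blood list had 1 of 6 higher, Cited4 (3.50 ± 0.46), germ cell genes 0 of 2 and anterior ectoderm genes 0 of 1, where Ptn, a heparin-binding growth factor that decidua also makes, was lower (-1.69 ± 0.29). Extraembryonic ectoderm genes had 3 of 10 higher, Peg10, Elf5 and Rhox6 (5.09, 5.26 and 4.27). Against trophoblast spots 1 of these 10 was higher, Id2 (2.09), and 4 were lower, among them Ascl2 (-6.41), Rhox6 (-2.24) and Ets2 (-1.90), which is the direction of Utf1. Of all tested genes, 11.3% were higher and 6.95% lower against trophoblast spots. Genes of de novo methylation and paralogs of the 10 had 2 of 7 higher, Cfc1 (7.26 ± 1.23), the paralog of Tdgf1, and Uhrf1 (2.71 ± 0.56). Parietal endoderm genes had 3 of 12 higher, Lama1, Pth1r and Lamb1 (2.44, 2.01 and 1.05), and Srgn lower (-1.13).

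The spots that held at least 3 of the 10 genes give the same genes a second view, without the classes. There were 12 in the library of replicates 1 and 2 and 37 in replicate 4, of which 17 were in no named class, 8 in the decidua class, 7 in the Spink1-led class and 5 in the trophoblast class. No test was made, since the spots were chosen by the 10 genes. In replicate 4 Lin28a had 146 UMIs in these spots and 63 in the other 1049, which is 146 against 2.18 CPM, and Sall4 had 115 against 2.63 CPM. Lefty2, an antagonist of Nodal, had 40.9 against 0.242 CPM, Fgf3 29.9 against 0.311, Trh 41.9 against 0.587, Sp5, a Wnt target, 31.9 against 0.553 and Trim71 106 against 3.80. The library of replicates 1 and 2 gave the same direction, with 15 and 15 UMIs of Sall4 (241 against 0.891 CPM), 11 and 14 of Lin28a (177 against 0.832) and 8 and 5 of Lefty2 (129 against 0.297).

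By list, only genes with at least 3 UMIs in those spots of replicate 4 were counted. Of these, 18 of 26 epiblast genes and 12 of 19 streak genes were over 10 times higher, against 3.03% of all 11441 such genes. Rare genes enter this count mostly through the chosen spots where they are high, so these shares describe the counted genes and are not read as support. De novo methylation and paralog genes had 7 of 14, extraembryonic ectoderm 5 of 12, node and definitive endoderm 3 of 7, trophoblast 4 of 10, extraembryonic and cardiac mesoderm 3 of 13, parietal endoderm 1 of 11, primitive blood 1 of 5, anterior ectoderm 1 of 2, germ cell genes 0 of 2 and endothelial genes 0 of 7. The visceral endoderm genes were also there: 12 of 13 were over 10 times higher, with Ttr at 492 against 13.4 CPM, Apoa1 at 374 against 9.40 and Afp at 79.8 against 1.49. The trophoblast list was at 1639 against 285 CPM, led by Prl3d1 (929 against 71.5). The smooth muscle list was at 498 against 3631 CPM and the natural killer list at 38.9 against 3368. The decidua list summed to 21946 against 21962 CPM, although 7 of its 10 genes were at less than 0.5 times their level elsewhere. So low were also 3 of 26 epiblast and 0 of 19 streak genes, and 11.6% of all 11441. Extraembryonic and cardiac mesoderm had 5 of 13 such genes, parietal endoderm 5 of 11 and endothelial genes 4 of 7. As sums, the extraembryonic and cardiac mesoderm list (929 against 1828 CPM) and the parietal endoderm list (3165 against 7176) were lower in these spots. Adult globins were at 4981 against 1884 CPM, and their part in the result was not tested. Counted in the same way, the library of replicates 1 and 2 had 7 of 9 epiblast and 9 of 13 streak genes over 10 times higher. Extraembryonic ectoderm had 0 of 2 there, against 3.66% of all 3849 genes counted.

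The genes most like the sum of the 10 across spots were named by mean Pearson r over libraries, among genes with at least 50 UMIs in at least 2 libraries and as a description, with spots of 1 library sharing depth. Bex4 came first (0.63 in replicates 1 and 2 and 0.77 in replicate 4), then Bex2 (0.50 and 0.71), Car4 (0.42 and 0.68), Prl3d1 (0.40, 0.56 and 0.46), Bex1 (0.63, 0.04 and 0.71) and Hmga1 (0.25 in replicate 3 and 0.67 in replicate 4). Prl7a1, H19, Fmr1nb, Phlda2, Prl3d2 and Igf2bp1 followed at means of 0.43 to 0.46. For Bex1 the value in replicate 3, where Pou5f1 was nearly absent, fell to 0.04, while Prl3d1 kept 0.56 there. Gene by gene in replicate 4, Pou5f1 was most like Car14, Gng3 and Sox11 (0.78, 0.77 and 0.77), and Mesp1 and T both like Lin28a, Car14 and Hmga2 (0.66, 0.66 and 0.60 for Mesp1, and 0.64, 0.58 and 0.55 for T). Utf1 was most like Trap1a, Rhox5 and Prl3d1 (means of 0.66, 0.64 and 0.64 over replicates 3 and 4), and Dnmt3b like Bex4, Bex2 and Car4 (0.61, 0.54 and 0.46).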

How the data were processed

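Each file holds whole-number UMI counts for every gene in every spot, which the authors deposited unnormalized. Space Ranger 1.2.2 wrote them, per the file headers, and Cell Ranger and mm10 are named in the submitters' processing notes. The annotation version, strand setting and spot filter: not given in the sources used here. The series held 3 libraries of 1 group, with 255, 233 and 1084 UMIs of the 10 genes. P-values rest on the spread of the 19 sums that was left after class and library were fitted, with 10 residual degrees of freedom. Sums of the same library were taken as independent apart from the library block.

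The 10 genes, the 20 gene lists (the 10 genes among them) and the tests were chosen with earlier results of these data known. Named genes were the 10, up to 4 called genes of each list with the smallest p, and the genes most like the 10; the spots with at least 3 of the genes, the splits by company and the genes named in them were chosen later. Spots with at least 10 per library and class were summed and fitted with edgeR 4.0.16 (TMM, filterByExpr, library as a block, genes of the class lists left out). Alternatives included DESeq2 1.42.0. Counts were simulated for the comparison with the mean of other classes (11844 genes), with a fixed spread, the same gene profile in all classes and no library effect. There 5% of 2-fold and 50% of 4-fold changes reached an edgeR adjusted p under 0.05, so under those settings smaller changes would mostly be missed. Rates in the real sums, which differed between libraries, were not estimated. Python 3.11.15, scipy 1.17.1 and R 4.3.3 were used.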

Additional observations from a re-analysis of the deposited data

How the results depend on the processing

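The share of spots with at least 1 of the 10 genes was 14.0%, and that with at least 2 was 3.33%. Thinning each spot to 3000 UMIs gave 3.37% and 0.584%, and asking for 2 UMIs of the gene gave 3.66% for the first. Leaving out a library, for the first share added after the data were seen, gave 10.3% to 19.2% and 1.68% to 4.85% (13.9% and 3.81% without replicate 3). Genes called higher and lower against the mean of the other classes numbered 678 and 91, and against trophoblast spots 1334 and 823. Without a library these ranged from 293 to 605, 17 to 105, 814 to 990 and 320 to 724, with 102 for the second without replicate 3 and 840 for the third without replicate 4. The first lower count was 201 with no filter on low counts, 194 with no minimum fold change, 191 with classes at the top 4% and 658 against pooled spots. Classes at the top 1% gave 878 and 476 against trophoblast spots. With Spink1 and Rhox5 left out of the ranking the 4 counts were 1072, 646, 445 and 170. The causes were not tested. Utf1 against the mean of the other classes was fitted at -4.77 at the top 1% and -4.00 without replicate 4 (4.08 without replicate 3). In the first 2 of these fits the Spink1-led class held 0 Utf1 UMIs and the test statistic was close to 0, so no direction was estimated. Reversed values were Pou5f1 against trophoblast spots (-1.81 at the top 1%), and, without Spink1 and Rhox5, Cited4 (-0.081), C1qa (-1.49), C1qb (-1.49) and C1qc (-0.71) against the mean and Chrd (-0.033) against trophoblast. Adjusted p over the alternatives ranged from 1.01e-16 to 0.188 for Dnmt3b, 1.86e-12 to 0.202 for Mesp1, 3.53e-10 to 0.388 for Pou5f1 and 1.55e-05 to 0.552 for T in edgeR or DESeq2 fits against the mean, and from 0.0038 to 0.509 for Mesp1 and 7.22e-05 to 0.479 for Utf1 against trophoblast. Without a library block Pou5f1 lost its call (edgeR adjusted p 0.0969). No paired analysis was possible because there is 1 group of samples; its classes were compared within libraries through the block. Nanog, Fgf5 and Mixl1 had at most 9 UMIs in a library, too few for the comparisons.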
